A study of Rattus norvegicus with 21 samples.

Results

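The 6 unlesioned, saline-treated libraries of this series were taken by their sample titles from 21 libraries, and they serve here as a description of the resting methylome of rat dorsal striatum. All samples came from wild-type Sprague Dawley rats of 120 days. The other libraries are 8 from lesioned rats given saline and 7 from lesioned rats given L-DOPA, in which 6-hydroxydopamine had been injected into the left medial forebrain bundle. After 3 weeks of recovery the L-DOPA rats had received 6 mg/kg each day for 7 days, with dissection 3 h after the last dose. Whether unlesioned tissue was sham-operated, intact or from the uninjected side is not stated in the labels. The replicate numbers name no animals, so the p-values below measure the spread between these samples, which may be technical. Dorsal striatum is a mixed tissue of neurons, glia and vessels, and each level is an average over its cells. The labelled tissue was not checked against methylation markers here.

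In mammals, DNA methyltransferases add a methyl group to the cytosine of a CpG, and the maintenance enzyme copies the mark to the other strand after replication. Most CpGs of the genome are methylated, while CpG islands, the CpG-rich stretches found at many promoters, usually stay unmethylated. Bisulfite converts unmethylated cytosine so that it is read as T, and the level of a cytosine is the percent of its reads that still show C. Bisulfite does not separate 5-methylcytosine from 5-hydroxymethylcytosine, a form that is abundant in brain, so every level given here is the sum of both.

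The 6 libraries together listed 1684729 autosomal CpG cytosines with at least 10 reads, and 1076923 of these (63.9%) were listed in every one of the 6. These common cytosines lie in 934569 CpGs. Median coverage at them was 47 reads in replicate 4 and 75 to 107 reads in the other 5. Summed over all cytosines, coverage was 7.75e+07 in replicate 4 and 1.20e+08 to 1.64e+08 in the others, and a read is counted again at each CpG it covers.

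Replicates 1 and 4 stood apart. Replicate 1 had lower levels than the others, and replicate 4 had the fewest reads and the noisiest single values. Some results are also given without them, while others, such as the spread at single cytosines, are given only over all 6 libraries. Cytosines whose mean over the other 5 libraries was 30% to 70% were 12.7 percentage points lower in replicate 1. At cytosines of 0% to 10% the same difference was -0.12 points. Replicate 1 also listed the smallest share of the cytosines seen in any unlesioned library, 76.7% against 79.2% to 85.6%. What sets replicate 1 apart was not tested.

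Most CpGs that these libraries sampled were either nearly unmethylated or highly methylated. Of the common cytosines, 59.4% ± 1.29 (SD, n = 6) had a level under 20%, 18.5% ± 0.731 lay from 20% to 80%, and 22.1% ± 1.92 were above 80%. The lowest class of 5 points, 0% to 5%, alone held 48.3% ± 0.764 of the cytosines, and the top class, 95% to 100%, held 9.45% ± 1.57. The classes between were thinly filled, and the one from 45% to 50% held 1.14% ± 0.024.

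**Figure D1:**
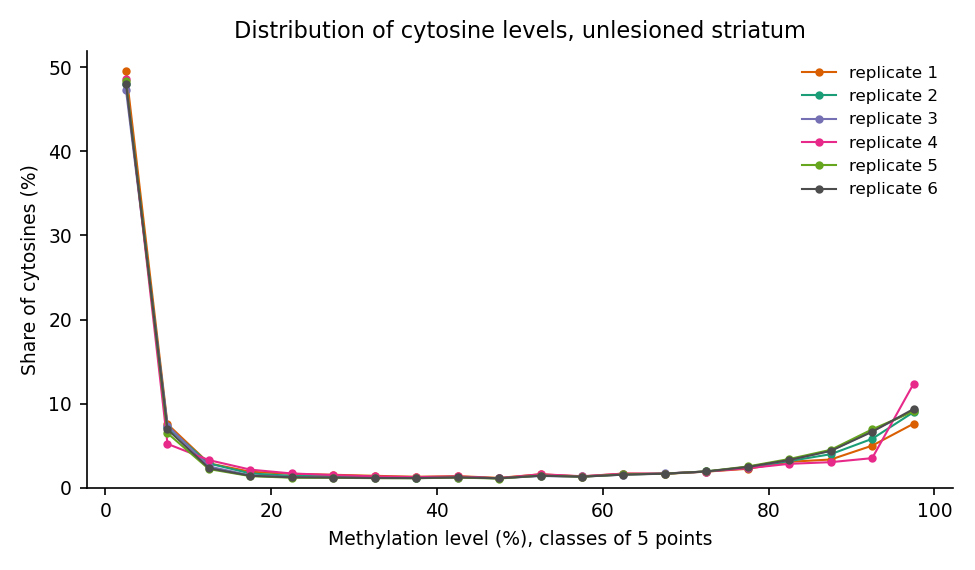
Share of the common autosomal cytosines (vertical axis, %) in each 5-point class of methylation level (horizontal axis, %), with 1 line for each of the 6 unlesioned libraries. All lines peak at 0% to 5%, where the mean share is 48.3%, and rise again toward 100%; replicate 1 lies lowest at 90% to 95% apart from replicate 4, whose share at 95% to 100% is the highest.

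The mean level was 31.8% ± 1.46 (SD, n = 6), with 29.1% in replicate 1 as the lowest value, a median of 32.3% and a highest value of 32.9%. The other 5 libraries spanned 31.6% to 32.9%, and their mean over the same cytosines was 32.4% ± 0.679. Replicate 1 thus lay outside the range of the rest, and it also had the smallest share above 80%, 18.7% against 21.5% to 23.7%. The median level was only 5.87% ± 0.378, far under the mean. A level of exactly 0% was found at 42.2% of the cytosines of replicate 4 and at 22.7% to 27.8% of those of the other libraries. A level of exactly 100% was found at 10.02% of the cytosines of replicate 4 and at 2.46% to 4.12% elsewhere. Replicate 4 also had the lowest depth, and the part of depth in these shares was not tested.

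The mean level is not that of the whole genome, because the files sample it unevenly. Cytosines were listed in short runs: neighbouring cytosines of one strand lay 49 bp apart 2891 times but 50 bp apart 784 times, and 92.9% of the runs spanned less than the 50 bases of a read. Levels also varied with depth. Cytosines with a median of 10 to 19 reads had a mean level of 46.9% ± 2.23, those with 200 to under 400 reads had 16.3% ± 0.628, and the 1.01% of cytosines with 400 reads or more had 30.6% ± 1.48.

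CpG-rich promoters are a part of these sampled sites and are described next. RefSeq promoter sequences of the build GRCr8 were placed on the authors' rn5 CpG lists by their CpG spacing alone, which placed 6180 autosomal promoters with at least 10 listed CpGs, and 5870 of these had at least 5 CpGs measured in all 6 libraries. Each gene name below rests on that match of spacing. The following 5 promoters are shown because they span the levels found: a dopamine receptor, a muscarinic receptor, and 3 genes of germ cells. Each line gives the 250 bases before the annotated start, 5′ to 3′ along the gene, and the capitals mark the CpGs measured in all 6 libraries.
Drd2: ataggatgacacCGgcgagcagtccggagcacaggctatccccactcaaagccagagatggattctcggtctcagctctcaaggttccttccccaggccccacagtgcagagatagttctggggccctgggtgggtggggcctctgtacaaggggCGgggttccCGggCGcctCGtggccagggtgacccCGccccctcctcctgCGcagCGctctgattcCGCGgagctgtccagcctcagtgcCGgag
Chrm4: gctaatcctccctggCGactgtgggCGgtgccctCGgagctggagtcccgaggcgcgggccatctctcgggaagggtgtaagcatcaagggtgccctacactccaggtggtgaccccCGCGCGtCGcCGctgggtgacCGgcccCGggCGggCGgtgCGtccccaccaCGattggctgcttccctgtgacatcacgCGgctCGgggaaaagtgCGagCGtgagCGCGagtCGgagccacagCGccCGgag
Dazl: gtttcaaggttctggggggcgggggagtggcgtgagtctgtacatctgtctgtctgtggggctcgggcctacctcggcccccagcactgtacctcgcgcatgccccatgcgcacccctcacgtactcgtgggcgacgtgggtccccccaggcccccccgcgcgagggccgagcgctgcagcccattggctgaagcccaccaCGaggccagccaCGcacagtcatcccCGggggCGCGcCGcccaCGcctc
Mael: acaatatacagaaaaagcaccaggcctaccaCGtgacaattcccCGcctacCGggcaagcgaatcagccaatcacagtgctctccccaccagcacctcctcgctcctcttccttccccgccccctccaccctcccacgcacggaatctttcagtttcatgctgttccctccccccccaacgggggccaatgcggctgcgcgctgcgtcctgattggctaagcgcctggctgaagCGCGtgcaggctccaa
Tdrd6: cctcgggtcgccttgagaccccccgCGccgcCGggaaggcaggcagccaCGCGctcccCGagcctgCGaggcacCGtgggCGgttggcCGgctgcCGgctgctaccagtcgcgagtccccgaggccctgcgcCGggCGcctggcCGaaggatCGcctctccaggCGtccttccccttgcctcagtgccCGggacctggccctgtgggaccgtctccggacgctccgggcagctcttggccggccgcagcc

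In these sequences the capitals sit in clusters, and many CpGs in lower case were not measured in all 6 libraries. The letters CCGG, searched as C, C, G, G (a palindrome, so both strands are covered), occur in each of the 5 windows, 4 times in Drd2, 3 times in Chrm4, 1 time in Dazl, 1 time in Mael and 8 times in Tdrd6. Windows of 250 bases before all 33469 RefSeq starts held CCGG in 46.2% of cases, and the matched ones in 99.1%. The matched ones had to hold at least 10 listed CpGs, and all starts include CpG-poor ones, so these windows are not alike. Over all matched promoters, 99.4% of 125262 listed cytosines had a CCGG beginning within the 50 bases before them on their own strand, against 28.3% of 169118 CpG cytosines that no library listed. A match is a description of the letters near the sampled cytosines of these promoters, and the labels' protocols name no enzyme. Sampled sites outside these promoters were not searched for CCGG.

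Nearly all matched promoters were unmethylated in unlesioned striatum. Of the 5870, 5782 (98.5%) had a mean level under 10%, 69 lay from 10% to 80%, and 19 were above 80%. The median promoter level was 1.44%, with a median SD over the 6 libraries of 0.592 points. Levels changed little along the window, from 2.18% ± 0.181 in the first 50 of the 250 bases to 1.85% ± 0.141 in the 50 bases from the start on. The matching needs many CpGs, so CpG-poor promoters are outside this count.

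Genes that mark striatal neurons and dopamine signalling had unmethylated promoters throughout the measured list. Of 32 listed genes, 5 had a measured promoter, and all 5 were under 10%, with a median of 2.83%; over all matched promoters 98.5% were under 10%, so this share is that of promoters in general. Drd2, the dopamine D2 receptor of indirect-pathway neurons, was measured at 11 CpGs between chr8:52297859-52298092 (rn5). Its promoter level was 3.26% at the lowest, 8.31% at the highest and 5.56% ± 1.73 on average. That average comes mostly from 1 CpG 238 bases before the start, which had 44.8% ± 16.5, while the 10 CpGs within 200 bases of the start averaged 1.64% ± 0.431.

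Chrm4, the muscarinic M4 receptor of direct-pathway neurons, was measured at 27 CpGs (chr3:87531705-87531986) and had 2.01% ± 1.48. Replicate 4 gave 4.96% and the other libraries 1.00% to 1.88%. Drd5, a D1-like dopamine receptor, had 3.20% ± 1.38, Isl1, a transcription factor of developing striatal neurons, had 2.83% ± 1.58, and Sp9, another such factor, had 2.29% ± 0.403. The promoters of the glutamate transporter Slc1a2, used by astrocytes, and of Cnp, an enzyme of myelinating oligodendrocytes, were as low at 1.03% ± 0.487 and 1.36% ± 0.393. The few measured neuronal and glial promoters thus all lay near the bottom of the scale.

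The other lists of low promoters are read against the same background, 98.5% of all matched promoters under 10%, and their shares are near it. All 6 measured promoters of 18 housekeeping genes were under 10%, and Polr2a, the large subunit of RNA polymerase II, had 1.90% ± 0.970. Developmental transcription factors, many of them silent in adult striatum, had 11 measured promoters of 46 genes, all between 1.76% for En2 and 3.30% for Pax1. For immediate early genes and the genes that write, read or remove methylation, all 11 measured promoters were under 10%, among them Egr1 with 2.16% ± 0.413, Fosb with 0.611% ± 0.323 and the stress-induced gene Gadd45b, linked to demethylation, with 1.12% ± 0.253. The 6 measured promoters of imprinted genes, of which Gnas has 2, were between 1.06% and 5.09%.

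Germ cell genes were the exception among the lists. Of 32 genes, 5 had a measured promoter, and 4 of these were above 80%, where 0.324% of all matched promoters lay. The list has few measured members and was written with earlier results of these data known. Dazl, an RNA-binding protein needed for germ cell development, was measured at 12 CpGs (chr9:11574977-11575052). Its level was 77.6% in the lowest library and 82.2% in the highest, with a mean of 80.3% ± 1.68, and all 6 libraries lay close together.

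Within Dazl the CpGs were not alike. CpGs at 7 and 10 bases after the start had 13.3% ± 5.14 and 11.3% ± 4.38, while the next ones, at 17, 22 and 26 bases, had 95.7% ± 2.33, 99.1% ± 1.53 and 96.8% ± 2.13. Immediately before the start the CpG at 6 bases had 97.3% ± 2.45. A pair of low CpGs thus lay inside a methylated stretch in every library.

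Mael, a protein of the piRNA pathway that restrains transposons, had 85.2% ± 4.73 over 9 CpGs (chr13:89326472-89326727), with 77.0% in replicate 1 as the lowest value and 90.2% as the highest. Ddx4, the germ cell RNA helicase also called Vasa, had 92.9% ± 0.979 over 13 CpGs, and Tuba3b, a tubulin gene, had 96.8% ± 1.33 over 5 CpGs. Tdrd6, a Tudor protein of male germ cells, differed from these with 7.76% ± 3.07 over 19 CpGs (chr9:18795183-18795456). Replicate 4 gave the highest Tdrd6 value, 13.7%, and the other libraries gave 5.57% to 8.21%. No Tdrd6 library overlapped any library of the other 4 genes.

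**Figure D2:**
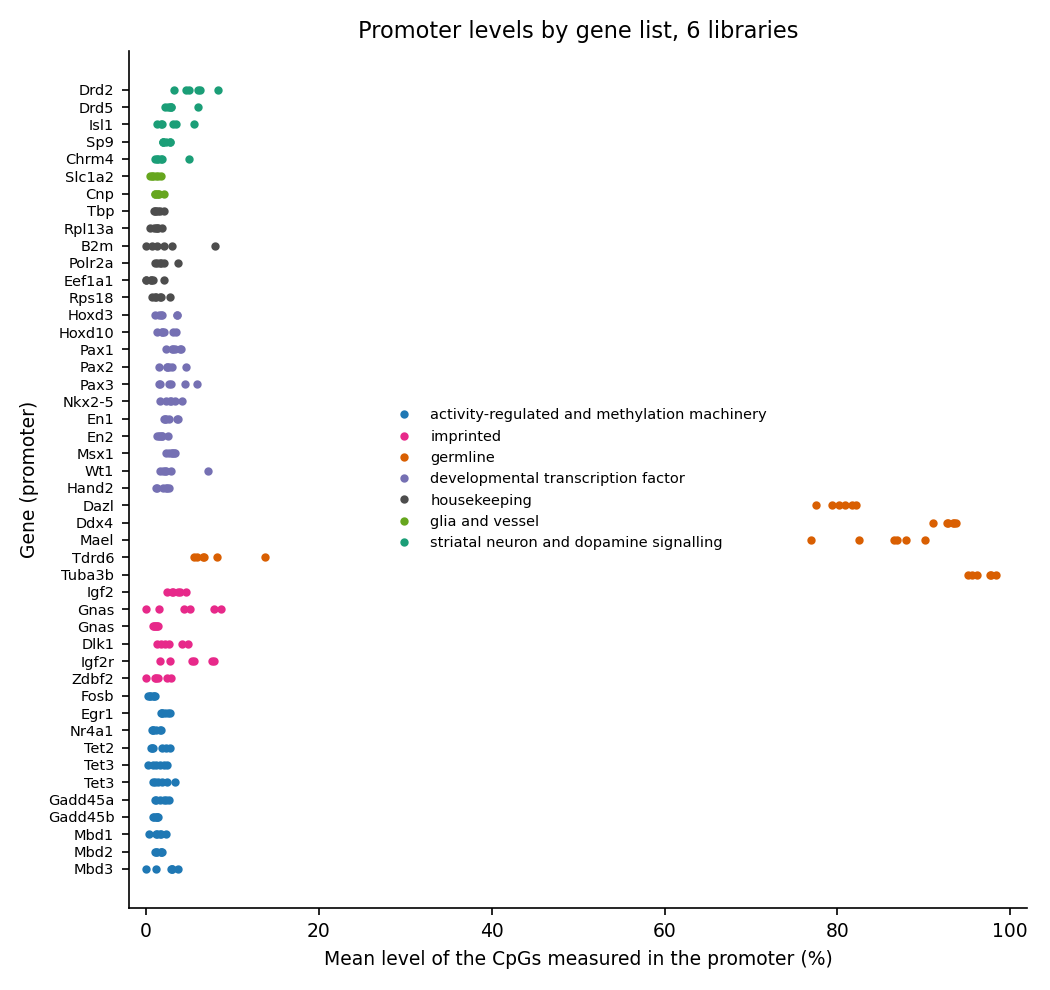
Mean level of the measured promoter CpGs (horizontal axis, %) for each measured gene of 7 hand-written lists (vertical axis; Gnas and Tet3 have 2 promoters each), with 1 point for each of the 6 unlesioned libraries. Dazl, Ddx4, Mael and Tuba3b lie at 77.0% or above in every library, and the other promoters lie at 13.7% or below.

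Beyond the lists, the 19 promoters above 80% belong to 14 genes, 7 of which have a name other than a locus number. Besides the 4 germ cell genes these are Gcshl1, Rpl39l1 and Spaca1, chosen for mention after their values were seen. Spaca1, a sperm acrosome protein, had 83.0% ± 10.5, with 64.3% in replicate 1 as the lowest value. A few promoters had an intermediate mean level in every library. Art5, an ADP-ribosyltransferase gene, had 45.6% ± 2.04 and Nobox, an oocyte transcription factor, had 44.4% ± 5.20. Both were also chosen after their values were seen. Their single CpGs were not alike, with means over the 6 libraries of 24.99% to 71.3% in Art5 and 19.2% to 90.4% in Nobox.

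Level fell steeply with the local number of CpGs, counted here as the CpGs listed in any of the 21 libraries in a window of 250 bp centred on it, the CpG itself included. CpGs with 1 to 3 in the window had 65.7% ± 3.23, those with 4 to 7 had 54.7% ± 2.40, those with 8 to 14 had 18.8% ± 0.750, and those with 15 or more had 2.95% ± 0.172. Most of the fall came within a narrow range, from 50.9% ± 2.15 at 6 CpGs to 11.3% ± 0.488 at 12. CpGs with 31 or more had 1.89% ± 0.168. Listed CpGs understate the true number wherever the reads did not reach.

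The difference of the sparsest minus the densest class was 57.1 points in replicate 1, 63.4 points at the median and 65.4 points at the highest. Its mean was 62.7 ± 3.14 points (SD, n = 6), above 0 in 6 of 6 libraries (exact two-sided sign-flip test, p = 0.03125, the smallest that 6 libraries allow). The class means spread more between libraries in sparse CpGs, which also have the higher levels. Replicate 1 was 7.05 points under the mean of the other 5 libraries in the class of 1 to 3. It was 0.314 points under that mean in the class of 15 or more. At cytosines of 20% to 80% the classes were closer, with a median SD over libraries of 11.9 points for 1 to 3 and 10.1 points for 15 or more. Among tiles of 250 bp, the one nearest to its class medians with 4 to 7 CpGs, chr4:7363751-7364000, had 51.3% ± 2.81, and the one with 15 or more, chr10:59437501-59437750, had 1.46% ± 0.460 over 17 CpGs. In the remaining classes a typical tile with 2 to 3 CpGs, chr19:67047751-67048000, had 74.9% ± 5.26, and a typical tile with 8 to 14, chr11:90575751-90576000, had 2.01% ± 0.795. The rn5 annotation of these tiles was not used here.

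**Figure D3:**
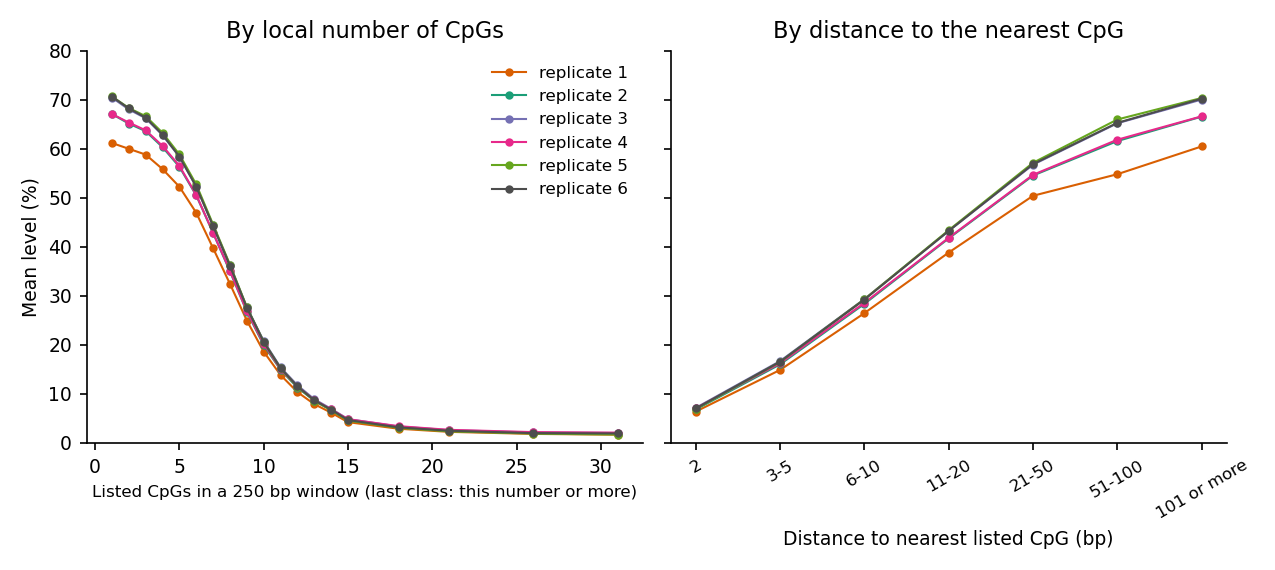
Mean CpG level (vertical axes, %) against the number of listed CpGs in a 250 bp window (left) and against the distance to the nearest listed CpG in bp (right), with 1 line for each of the 6 unlesioned libraries. Levels fall from 67.9% at 1 CpG to 1.89% at 31 or more on the left, rise from 6.91% at 2 bp to 67.4% beyond 100 bp on the right, and replicate 1 lies lowest where levels are high.

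Spacing gave a similar gradient. A CpG with its nearest listed neighbour at 2 bp had a level of 6.91% ± 0.266, at 6 to 10 bp 28.6% ± 1.10, at 21 to 50 bp 55.1% ± 2.55, and beyond 100 bp 67.4% ± 3.82. CpGs over 50 bp from the nearest were 46.7 ± 3.20 points above those at 10 bp or less, higher in 6 of 6 libraries (exact sign-flip test, two-sided, p = 0.03125). Little of this remained at equal local number. With both kinds compared within the same classes of number, the difference was 2.39 ± 1.49 points, -0.268 in replicate 1 and 2.00 to 3.73 in the others (exact sign-flip test, two-sided, p = 0.0625). This remainder had no fixed sign, since it was 7.18 points with a window of 100 bp and -1.51 points with one of 500 bp, each with p = 0.03125 in the same exact test.

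Neighbouring CpGs had alike levels over distances beyond 250 bp. These correlations run over pairs of CpGs of one library, which share reads at short distance and share local CpG number at any distance, and pairs overlap, so they are given as descriptions. Distance ranges leave out their lower bound from 50 bp on. Over 471932 pairs 2 to 10 bp apart, Pearson's r was 0.961 ± 0.011 (SD over 6 libraries), at 50 to 100 bp 0.925 ± 0.026, at 250 to 500 bp 0.817 ± 0.035, at 500 to 1000 bp 0.671 ± 0.028, and at 2000 to 5000 bp 0.236 ± 0.0063. Replicate 4 was lowest at 2 to 10 bp, with 0.939, against 0.957 to 0.968 in the others. Taking the first CpG from one library and the second from another, so that no read is shared, gave 0.949 at 2 to 10 bp and 0.668 at 500 to 1000 bp.

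The likeness was lower among CpGs of intermediate level. Where both CpGs had 20% to 80% in the mean of the other 5 libraries, r was 0.705 ± 0.044 at 2 to 10 bp, 0.437 ± 0.103 at 50 to 100 bp and 0.186 ± 0.050 at 500 to 1000 bp. Ranks gave lower values too, with Spearman's rho of 0.619 at 2 to 10 bp and 0.224 at 500 to 1000 bp over all pairs. The mean absolute difference between the 2 CpGs of a pair was 3.17 ± 0.372 points at 2 to 10 bp, 4.27 ± 0.481 at 250 to 500 bp and 28.9 ± 1.01 at 2000 to 5000 bp.

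A library's own deviations were also shared between neighbours, less so with distance and to a degree that differed between libraries. The deviation of a CpG from the mean of the other 5 libraries correlated with that of its neighbour at 0.474 ± 0.079 for 2 to 10 bp and 0.323 ± 0.098 for 26 to 50 bp. At 50 to 100 bp, r was 0.166 ± 0.135, and the libraries differed widely, from 0.017 in replicate 4 to 0.389 in replicate 1. Replicate 1 still had 0.322 at 100 to 250 bp and 0.217 at 250 to 500 bp, while replicate 4 had 0.012 and 0.010. Without replicate 1 the mean at 50 to 100 bp was 0.122. CpGs within the 50 bases of a read can share reads, and with them counting error. The deviations were also not centred by level or local CpG number. Replicate 1 was 7.05 points low in the class of 1 to 3 CpGs and 0.314 points low in that of 15 or more. How much of these correlations is local was not tested.

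**Figure D4:**
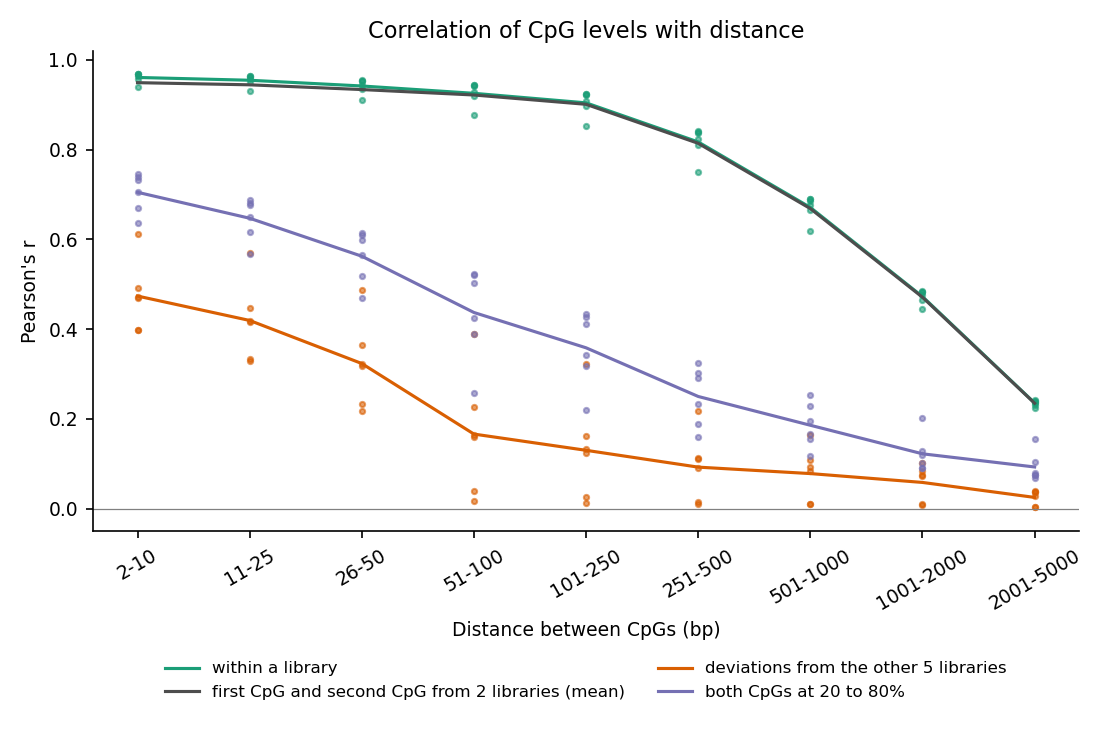
Pearson's r between the levels of 2 CpGs (vertical axis) by their distance in bp (horizontal axis); points are the 6 unlesioned libraries and lines their means. All pairs stay above 0.8 on average up to 250 to 500 bp, pairs with both CpGs at 20% to 80% start at 0.705, and deviations from the other 5 libraries fall to 0.166 at 50 to 100 bp.

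All 20 autosomes differed from the rest in mean level, and in much the same order in each library. Each autosome's mean was compared with that of the other 19 over the 6 libraries, and 20 of 20 (100%) passed (exact two-sided sign-flip test, Benjamini-Hochberg adjusted p = 0.03125 for each, the smallest possible). All libraries were read at the same cytosines, so a pass says that an autosome's offset recurred between libraries. Chromosome 13 was highest with 37.2% ± 1.63, then chromosome 20 with 37.1% ± 1.65 and chromosome 12 with 36.4% ± 1.71. Chromosome 10 was lowest with 28.4% ± 1.37, then chromosome 1 with 29.1% ± 1.33 and chromosome 3 with 29.9% ± 1.47. The highest and the lowest autosome were 8.76 points apart on average, and 10 autosomes had the same rank in all 6 libraries.

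The middle of the order was closer. From high to low it continued with chromosome 18 (34.6% ± 1.55), 19 (34.2% ± 1.67), 16 (33.8% ± 1.55), 9 (33.7% ± 1.46), 11 (33.6% ± 1.45), 17 (33.5% ± 1.51), 15 (33.4% ± 1.46) and 14 (32.4% ± 1.48). Then came chromosome 6 (31.6% ± 1.54), 4 (31.5% ± 1.41), 5 (31.4% ± 1.46), 2 (30.8% ± 1.37), 7 (30.7% ± 1.38) and 8 (30.2% ± 1.39). Of the 19 neighbours in this order, 12 (63.2%) differed the same way in all 6 libraries (exact sign-flip test, two-sided, adjusted p = 0.049). The other 7 were not ordered alike in all libraries: 13 and 20, 16 and 9, 9 and 11, 11 and 17, 17 and 15, 6 and 4, and 4 and 5. The order came from the means of these same 6 libraries, so the pairs and their average direction were set by the values tested.

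The spread went with CpG number. Across the 20 autosomes, mean level and the percent of CpGs in the class of 15 or more had a Pearson's r of -0.907, a description over autosomes that share libraries and reads. Only 26.4% of the CpGs of chromosome 13 and 26.3% of those of chromosome 12 were in that class, against 34.2% on chromosome 1. With each autosome given the same mix of the classes of local CpG number, the range shrank to 4.94 points and the SD over autosomes from 2.52 to 1.25. These standardised means still had an r of -0.730 with the percent of CpGs in the class of 15 or more, so the relation was reduced and not removed. All 20 still differed from the rest in the same exact test (100%), with chromosome 20 now highest at 36.7% ± 1.63 and chromosome 10 again lowest at 31.8% ± 1.53.

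The direction of some autosomes depended on the summary. Chromosomes 5 and 7 were under the other autosomes by 0.464 and 1.20 points on the plain mean but above them by 0.483 and 0.153 points at equal local number. As a median of 1 Mb windows, which gives CpG-dense stretches less weight, chromosome 13 again led with 44.8% ± 2.25 and chromosome 10 again came last with 29.7% ± 1.52. On that summary chromosomes 7, 14 and 17 were on the other side of the mean of the rest than on the plain mean, and 18 of 20 autosomes passed the same exact test. Chromosomes 12 and 14 did not pass, with 0.059 ± 0.237 and -0.276 ± 0.420 points against the rest. At cytosines with at least 20 reads, chromosome 6 did not pass on the plain mean (0.013 ± 0.089 points), and 19 of 20 did.

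**Figure D5:**
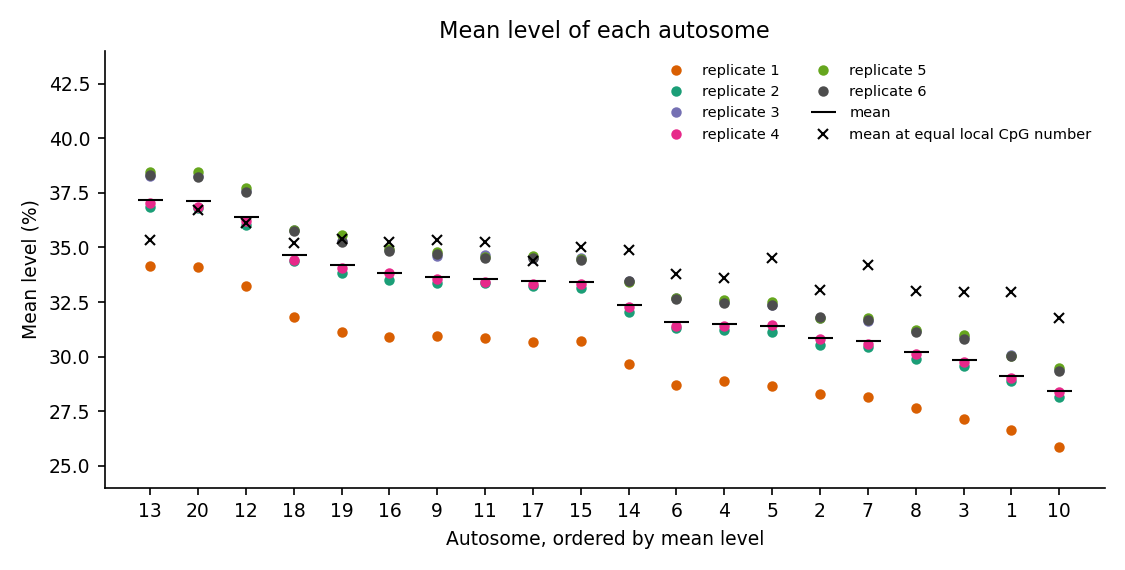
Mean level (vertical axis, %, starting at 24) of the 20 autosomes ordered from high to low, with 1 point per unlesioned library, a bar for the mean and a cross for the mean at equal local CpG number. Replicate 1 lies lowest on every autosome, the order from chromosome 13 to chromosome 10 is much the same in each library, and the crosses span 4.94 points against 8.76 for the bars.

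The 2 strands of a CpG carried nearly the same level on average. Both cytosines were listed in all 6 libraries at 142354 CpGs, 15.2% of the common ones. There the plus strand minus the minus strand was -0.031 points at the lowest, -0.0063 at the median and 0.0096 at the highest, with a mean of -0.011 ± 0.015 points (exact two-sided sign-flip test, p = 0.156). Of 5 level classes, the one of 30% to 70% had a lower plus strand in 6 of 6 libraries, by -0.600 to -0.048 points with a mean of -0.242 ± 0.205 (exact two-sided sign-flip test, p = 0.03125, adjusted over the 5 classes 0.156). Correlation of the strands over all 142354 CpGs was 0.963 ± 0.023, with 0.917 in replicate 4 and 0.963 to 0.976 in the others. Of the 142354, 107761 had a level of 0% to 10%, a class that held 55.5% of the common cytosines. Averaged over libraries, median coverage was 119.5 reads at the 142354 and 81.3 at all common cytosines.

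At single CpGs the strands still differed by more than read counting alone would give. The mean absolute difference was 4.00 ± 1.17 points, made of 6.33 in replicate 4 and 3.29 to 3.90 in the other 5. Its mean square was 3.59 ± 1.25 times the value for binomial counting, with 6.09 in replicate 4 and 2.67 to 3.31 in the other 5. Binomial counting allows for depth and assumes that reads are independent molecules. Among CpGs of 20% to 80%, the strands of one library correlated at 0.604 ± 0.125, and 23.0% ± 12.1 of such CpGs had strands over 20 points apart. Replicate 4 stood apart here too, with a correlation of 0.355 against 0.617 to 0.682 in the other 5, and with 46.4% of such CpGs over 20 points apart against 14.8% to 23.1%.

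Some of this strand difference recurred. Its correlation between 2 libraries was 0.374 ± 0.095 (SD over 15 pairs of libraries). The same strand differed between 2 libraries by 3.86 points on average and opposite strands of 2 libraries by 4.43. In 410 CpGs the strands differed the same way by over 20 points in every library. One is the CpG chr7:4680723, named because it lies nearest to the middle of the class of 30% to 70%: its plus strand had 12.5% to 38.6% and its minus strand 85.6% to 96.7%, and the joined level was 49.7% ± 9.37.

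The 6 libraries reproduced one another closely over all cytosines and less closely at intermediate levels. Pearson's r between 2 libraries over the common cytosines was 0.967 on average over 15 pairs, from 0.944 to 0.985, as a description over cytosines that share neighbours. Pairs among replicates 2, 3, 5 and 6 had 0.978 to 0.985, while replicate 4 averaged 0.952 and replicate 1 0.960 with the others. The mean absolute difference between 2 libraries was 5.63 ± 1.22 points per cytosine over all pairs and 4.31 ± 0.417 without replicates 1 and 4.

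Spread grew toward the middle of the scale. The median SD over the 6 libraries was 1.22 points at cytosines of 0% to 10%, 12.4 points at 30% to 70% and 3.798 points at 90% to 100%. At 20% to 80%, the mean squared difference between libraries was 3.32 ± 1.19 times that of binomial counting (15 pairs), and 2.04 ± 0.394 times without replicates 1 and 4. The variance was 2.28 times counting at cytosines with a median of 10 to 19 reads and 8.51 times at those with 200 or more, although the median SD itself fell from 16.1 to 7.05 points. Libraries were closer at deeper cytosines, but less so than counting alone would make them.

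Most cytosines kept their class. In all 6 libraries 55.2% were under 20%, 14.05% were above 80% and 7.80% lay from 20% to 80%. A further 22.6% fell into 2 neighbouring classes, and 0.304% were under 20% in some libraries and above 80% in others. A level of 0% in all 6 was found at 4.58% of the cytosines.

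Single CpGs show the same contrast. Near the middle of its class, chr1:171209617 had 0.78% ± 0.816, chr9:3089811 had 18.1% ± 5.72, chr4:210156354 had 82.4% ± 6.33 and chr18:55211815 had 95.1% ± 2.66. With both strands joined, some CpGs held an intermediate level tightly. In the 6 libraries chr3:176918464 had 41.7% to 43.97% (SD 0.964 points), and chr10:71830851 had 46.4% to 49.5%. The level of chr6:131189123 was 34.2% to 37.4% over at least 768 reads each. These CpGs had the 3 smallest SDs of 9453 CpGs of 30% to 70% with both cytosines listed in all 6 libraries. They were picked for that, so their small spread is a description. Their single strands spread more. At chr10:71830851 the plus strand had 32.7% to 46.6% and the minus strand 50.0% to 80.6%. In replicate 4, chr3:176918464 had 35.7% on the plus strand and 58.0% on the minus strand.

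The 3 CpGs with the largest SD, picked by the same rule, had very different levels from library to library. At chr10:13630174 replicates 1 to 6 had 94.5%, 51.9%, 49.8%, 100%, 99.1% and 0%, with at least 107 reads each. At chr13:57914754 they had 0%, 48.0%, 98.8%, 54.3%, 96.2% and 51.3%. Both strands followed each other at the first of these, since the plus strand had 96.2%, 58.0%, 53.2%, 100%, 99.1% and 0% and the minus strand had 93.1%, 45.5%, 45.7%, 100%, 99.1% and 0%. At chr3:129550983 the levels were 74.1%, 66.7%, 73.6%, 95.1%, 3.13% and 3.15%, with at least 32 reads each. Its strands agreed less, with 37.5% on plus against 78.9% on minus in replicate 2 and 52.8% against 78.5% in replicate 3. At chr13:57914754 the plus strand had 33.3% and the minus strand 76.8% in replicate 4, and they were closer in the other libraries. What sets these levels was not tested. The gene context of these rn5 positions was not used here.

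No descriptor of the baseline separated the unlesioned from the lesioned libraries. Over the 945349 cytosines listed in all 21 libraries, the mean level was 28.3% ± 1.26 in the 6 unlesioned, 28.1% ± 0.563 in the 8 lesioned saline and 27.7% ± 1.36 in the 7 lesioned L-DOPA libraries. Their ranges overlapped, since the unlesioned ones spanned 25.9% to 29.2% and the lesioned saline ones 26.9% to 28.7%. Of 20 tests, 10 descriptors against each lesioned group, 0 (0%) passed in exact two-sided permutation tests with Benjamini-Hochberg adjustment; the smallest adjusted p was 0.967, the smallest unadjusted p was 0.131, and 0 of the unadjusted values were under 0.05. These tests do not show that the groups were alike. All unlesioned libraries carry numbers of 1 of the 2 runs of library numbers in the deposited names, and that run holds 6 unlesioned, 2 lesioned saline and 4 L-DOPA libraries. Within it the smallest unadjusted p was 0.036 and the smallest adjusted p 0.714 (exact permutation tests). With 6 libraries against 2 the exact test cannot go below p = 0.036, so the 10 comparisons with lesioned saline could hardly have passed there after adjustment.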

How the data were processed

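Libraries of bisulfite-treated genomic DNA were read from one end over 50 bases, per the labels' protocols; trimming, mapping to rn5 and removal of duplicates followed, per the design text. Tools named in the submitters' processing notes are methylKit 0.9.2, SAMtools 0.1.19, Bismark 0.13.0 for mapping, and Trim Galore 0.3.7 with FastQC 0.10.1. For every listed CpG cytosine the deposited files hold a read count (coverage) and the authors' percent of C and percent of T among those reads. Each listed cytosine had at least 10 reads, and for every one a whole count of C reads gave the deposited percent to within 0.01 points. Per library 37.7% to 59.0% of the cytosines had over 50 reads, more than de-duplication by position would leave on one strand, so counting errors may be too small.

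Levels were analysed on chromosomes 1 to 20 at cytosines listed in all 6 unlesioned libraries. Both cytosines of a CpG were summed for local number, spacing, distance and promoters. Differences within libraries were tested with exact sign-flip tests and groups with exact permutation tests, at a threshold of 0.05. Named CpGs and tiles were those nearest the medians of their class, and the 3 smallest and 3 largest SDs at 30% to 70%. Named CpGs were taken only from those with both cytosines listed in all 6 libraries. Promoters were placed by spacing: at least 10 listed CpGs on promoter CpGs, none elsewhere in the 300 bases, and a single place; of 6197 such places 6180 (99.7%) were on RefSeq's chromosome and were kept. This step and the gene lists were added after values were seen, and members and lists were chosen with earlier results of these data known. The functions were checked on simulated data. Python 3.11.15, NumPy 2.4.6, pandas 2.3.3, SciPy 1.17.1 and matplotlib 3.10.9 were used. No chromosome other than the autosomes was analysed here.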

Additional observations from a re-analysis of the deposited data

Results flagged for a closer look

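In 95 sets of 6 library values, the gap between the highest or lowest library and its nearest neighbour was compared with the whole range (Dixon's ratio). It passed the 95% critical value in 27 sets, where chance would give about 1 in 20, or 4.75. The sets are not independent, since the autosomes are parts of one mean.

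Replicate 1 was the outlying library in 18 of them. Its mean level was 29.1%, where the next library had 31.6%, and its share of cytosines under 20% was 61.9%, where the next had 59.7%. It was also apart on 16 autosomes, with 26.6% on chromosome 1, 28.3% on 2, 27.1% on 3, 28.9% on 4, 28.7% on 5, 28.7% on 6, 28.2% on 7 and 27.6% on 8. On the others of these it had 30.9% on chromosome 9, 25.9% on 10, 30.8% on 11, 34.2% on 13, 30.7% on 15, 30.9% on 16, 30.7% on 17 and 31.8% on 18.

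Replicate 4 was the outlying library in 8 sets. Its correlation of CpGs was 0.939 at 2 to 10 bp and 0.618 at 500 to 1000 bp, the lowest of the 6, and its mean absolute strand difference was 6.33 points, the highest. The CpG chr7:4680723 had 67.6% in it, where the next library had 49.5%. Its promoter level was also the highest for Drd5 (5.97%), Chrm4 (4.96%), Wt1 (7.20%) and Tdrd6 (13.7%).

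Replicate 2 was apart at the promoter of B2m, a housekeeping gene of the immune system, with 7.96% where the next library had 2.96%.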

How the results depend on the processing

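The levels moved with the choice of cytosines, while thinning to 10 reads left the mean at 31.8%. At 20 or more reads the mean was 27.2%, with 65.4% of cytosines under 20%, 16.1% between and 18.5% above 80%; at 50 or more these were 20.6%, 74.1%, 12.4% and 13.5%. Over all cytosines a library lists they were 37.4%, 52.7%, 20.6% and 26.6%, and weighted by coverage 24.9%, 68.4%, 14.8% and 16.8%. Joining strands gave a mean of 34.1%, with 56.5% under 20% and 19.7% between. Thinned to 10 reads the shares were 57.1%, 23.6% and 19.3%, and bounds of 10% and 90% gave 55.1%, 29.95% and 14.996%.

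The spacing difference at equal local number was 2.89 points at 20 reads, 4.22 at 50 reads, 7.18 with the 100 bp window and -1.51 with the 500 bp window, so its sign depends on the window. The correlation at 500 to 1000 bp was 0.638 at 20 reads, 0.552 at 50 reads and 0.627 thinned, and the one at 2 to 10 bp was 0.933 thinned. Across 2 libraries the latter was 0.949, with both CpGs at 20% to 80% they were 0.705 and 0.186, and as Spearman's rho 0.619 and 0.224. The strand difference was 2.09 points at 50 reads and 5.92 thinned. Correlation between libraries was 0.984 at 50 reads and 0.934 thinned, and variance over counting was 5.12 at 50 reads, 1.59 thinned and 5.42 for 250 bp tiles.

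Leaving out 1 library in turn, over the cytosines common to the other 5, gave means of 31.7% to 34.7%, shares under 20% of 56.4% to 59.6% and above 80% of 21.8% to 24.9%, the far ends being those without replicate 1. Sparse minus dense was 62.1 to 65.6 points, far minus near 46.1 to 47.6 points and the correlation at 500 to 1000 bp 0.666 to 0.699. With 5 libraries the exact test cannot go below p = 0.0625, so 0 autosomes could pass, and no such call is possible. Without replicates 1 and 4 together, chosen after the data were seen, the mean was 36.2%, the shares 54.6% and 26.3%, the differences 66.3 and 47.1 points, the correlation at 500 to 1000 bp 0.721, variance over counting 2.00 and the autosomes passing 0 of 20, with p of at least 0.125. Promoters matched with at least 15 CpGs, also added later, were under 10% in 99.3% of cases.

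Of 240 values in other settings, 157 kept their direction and side of the threshold, moved by less than the spread between libraries or, for counts, stayed within 1.5 times the reported count. Among the latter are 5 counts of autosomes under 20: on the plain mean 19 at 20 reads (without chromosome 6) and 18 as a median of 1 Mb windows (without 12 and 14), and at equal local number 19 at 20 reads (without 6), 19 at 50 reads (without 5) and 19 with the 500 bp window (without 17). The comparisons with the lesioned groups gave 0 calls in every setting run; the smallest unadjusted p was 0.011, for L-DOPA without unlesioned replicate 4, and the smallest adjusted p was 0.179. Same-numbered replicates did not pair: their deviations correlated at -0.113 to 0.200 with lesioned saline and -0.357 to 0.119 with L-DOPA, and 2 of 6 and 0 of 6 correlated best with their own number. With the replicate block, 0 descriptors passed for either group (exact sign-flip test, smallest p 0.281 and 0.656). Local number from the rn5 sequence was not run, since no genome of that build was used. Replicate 4 had the lowest median coverage, 47 reads. The causes of these shifts were not tested.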
